A study of Caenorhabditis elegans with 2 samples.

Results

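The gst genes of Caenorhabditis elegans encode cytosolic glutathione S-transferases. The set described here holds the 44 protein-coding genes, of 19985 in the Ensembl annotation of the WBcel235 assembly, whose symbol begins with gst-. Peaks of the transcription factor ELT-2 near these genes were taken from lists made by ChIP-seq, in which DNA bound to a protein is precipitated and sequenced. Both libraries came from strain OP56, which carries unc-119(ed3) III and the integrated transgene wgIs56. The transgene expresses ELT-2 with a GFP-FLAG tag at its C-terminus, and an anti-GFP antibody was used for the precipitation. Hermaphrodite embryos at a late stage were used whole, 4 h after synchronization by egg bleaching, as 2 biological replicates that form 1 group. All animals carried the transgene, which is a single line, and control libraries were not analysed here.

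Glutathione S-transferases join the tripeptide glutathione to reactive or oxidised molecules, which makes these more soluble and ready for export from the cell. In worms many of the genes lie in tandem arrays, and the intestine is a main site of detoxification. ELT-2 belongs to the GATA family of zinc finger factors, acts in the intestine and has TGATAA as its known core site. The stress factor SKN-1 is the best known activator of gst genes, and gst-4 is its usual reporter.

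The peak lists give called positions, so the cell type could not be checked against markers, and neither occupancy in single cells nor expression was measured. The thresholded list, which holds pooled peaks that passed the reproducibility procedure of the authors, had 4098 peaks. Its signal, the authors' own peak value on a scale that is not given, ran from 67.6 to 1740 with a median of 108. The pooled list before thresholding had 30000 entries down to a signal of 16.1, and most of these are weak. The lists of replicate 1 and replicate 2 had 25770 and 25986 entries. The depth of the libraries is unknown from these lists. Thresholding had already used both replicates, so a match in each replicate is not independent evidence for a peak.

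A gene was scored as having a promoter peak when a thresholded summit lay between 1000 bp upstream and 200 bp downstream of a transcript 5′ end. By this rule 9 of the 44 gst genes (20.5%) had a promoter peak, against 13.7% of all protein-coding genes. The 9 genes were gst-6, gst-7, gst-13, gst-20, gst-22, gst-27, gst-36, gst-42 and gst-43, and gst-13 had 2 peaks, which makes 10 peaks in all. With 44 members, 1 gene moves the share by 2.27 percentage points, and no test of the difference was made.

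The stretches at the summits of the gst-6 and gst-36 peaks are shown because each holds the core word close to its summit. Sequences are those of the WBcel235 (ce11) assembly, written 5′ to 3′ on the strand of the gst gene, with TGATAA or its reverse complement TTATCA in capitals. The gst-6 stretch lies at chrII:4879792-4879890 on the plus strand and ends just before the 5′ end of the gene. The gst-36 stretch lies at chrX:9863085-9863185 on the minus strand.
gst-6 summit: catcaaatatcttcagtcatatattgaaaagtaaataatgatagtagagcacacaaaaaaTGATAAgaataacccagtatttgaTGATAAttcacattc
gst-36 summit: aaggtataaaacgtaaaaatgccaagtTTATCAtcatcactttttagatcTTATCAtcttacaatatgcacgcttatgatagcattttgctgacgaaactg
Each stretch held the word 2 times. The centre of the nearest site was 12 bp downstream of the gst-6 summit and 3 bp downstream of the gst-36 summit, and both nearest sites had the longer form TGATAAG, read as CTTATCA on the opposite strand.

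Sites farther from a summit occurred at both gst-13 peaks and at gst-42, and these are shown as short stretches around the word. The upstream gst-13 site lies at chrII:9230694-9230723 and the second gst-13 site at chrII:9231489-9231518, both on the plus strand. The gst-42 site lies at chrX:11727894-11727923 on the minus strand. The second gst-13 site and the gst-42 site fall in the 5′ UTR of their gene.
gst-13 upstream site: atctgccggaaaTGATAAtctgtcgatgct
gst-13 5′ UTR site: tctccaatatgaTTATCAgttttctattga
gst-42 5′ UTR site: caccgtccaatcTTATCAgttagttcgaca
The centres of these sites lay 47 bp, 40 bp and 37 bp from their summits.

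The strongest gst peak and the one next in signal had no TGATAA within 50 bp of the summit, and their summit stretches are shown for that reason. The gst-22 stretch lies at chrV:16232326-16232426 and the gst-27 stretch at chrII:15165980-15166080, both on the minus strand.
gst-22 summit: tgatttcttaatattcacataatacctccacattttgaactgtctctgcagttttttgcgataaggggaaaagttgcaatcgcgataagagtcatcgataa
gst-27 summit: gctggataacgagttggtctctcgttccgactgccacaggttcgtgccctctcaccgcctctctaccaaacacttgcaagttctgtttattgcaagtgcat
The gst-22 stretch held GATAAG 2 times, in each case preceded by a base other than T. The gst-27 stretch held neither TGATAA nor GATAAG. The summit at gst-27 also lies 2 bp outside the 5′ end of the snoRNA gene Y53F4B.48 (15165894 to 15166028 of chromosome II, minus strand), so the last part of the stretch is snoRNA sequence.

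The core word also occurs in gst promoters with no thresholded peak, and examples are shown for comparison. Of these genes, gst-4 and gst-17 had a pooled entry below the threshold. Its summit lay at −48 bp from the 5′ end at gst-4 and at −699 bp at gst-17, where the site is centred at −644 bp. The gst-26 site lies at chrII:15164635-15164664 on the minus strand, centred at −96 bp from the 5′ end, and the gst-4 site at chrIV:10142158-10142187 on the plus strand, centred at −53 bp. The gst-12 sites lie at chrII:13618487-13618516 and the gst-17 site at chrII:13631420-13631449, both on the minus strand.
gst-26 site: ctgtcaaatattTGATAAgactatgcggaa
gst-4 site: tgacattacactTGATAAgaaaatatatat
gst-12 sites: cattaTTATCAaTTATCAcgtacctatacc
gst-17 site: aaacaaactgacTGATAActggaattaaca
The gst-26 and gst-4 sites have the form TGATAAG, as at gst-6, gst-36 and gst-42. The gst-26 window held 3 core sites, 2 of them TGATAAG, and had no entry in the pooled list or in the list of either replicate.

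The strongest peak lay at gst-22 on chromosome V (16232302 to 16232431), a gene annotated as a glutathione transferase. Its summit was 94 bp upstream of the 5′ end. The signal was 213, rank 543 of the thresholded list, and the peak was 130 bp wide, whereas the other 9 gst peaks were each 456 bp wide. Its entry had a signal of 123 in replicate 1 (rank 460) and 88.7 in replicate 2 (rank 733). The peak was therefore near the top of both lists, and gst-22 was the one gene with a promoter peak among the 9 gst genes of chromosome V.

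The gst-27 peak on chromosome II (15165802 to 15166257) had a signal of 194 and rank 661. Its summit was 299 bp upstream of gst-27 and ranked 667 in replicate 1 and 659 in replicate 2, with signals of 104 and 93.5. Of all gst peaks this one had the most even ranks. The snoRNA gene between the summit and gst-27 is transcribed in the same direction, and whether the peak belongs to one gene or the other was not tested. The other 9 gst peaks lay between 6489 and 88304 bp from the nearest tRNA, snoRNA, snRNA or rRNA gene. Of all 2344 promoter peaks in the list, 5.03% had a summit within 200 bp of such a gene. With those summits left out, a choice made after the gst-27 peak was seen, 8 gst genes (18.2%) had a promoter peak, against 13.2% of all genes.

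The gene gst-42, annotated as a putative maleylacetoacetate isomerase, an enzyme of tyrosine breakdown, had a peak of signal 150.2 on chromosome X (11727717 to 11728172). The summit lay 9 bp upstream of the 5′ end and 206 bp upstream of the divergent gene D1053.2, so it counts for both. The ranks were 1288 in replicate 1 (signal 76.8) and 1123 in replicate 2 (signal 72.3). Its nearest relative in the family, gst-43, is annotated with the same enzyme activity and shares 55.6% of its residues. That gene also had a peak, of signal 83.6, on chromosome I (2900846 to 2901301), with a summit 251 bp upstream of gst-43 and 214 bp upstream of the coatomer gene copa-1. The gst-43 peak was weaker than that of gst-42 in each list, with ranks 4024 (signal 38.6) and 2730 (signal 44.5) in replicates 1 and 2. Both isomerase-type genes thus shared their peak with a neighbouring gene, and no TGATAA lay within 50 bp of the gst-43 summit.

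The gst-13 promoter held 2 peaks on chromosome II. The one at the gene start (9231235 to 9231690) had a signal of 140.0, with its summit 6 bp downstream of the 5′ end. It ranked 1077 in replicate 1 (signal 83.8) and 1653 in replicate 2 (signal 59.0). The one upstream (9230433 to 9230888) had a signal of 104, with its summit 796 bp upstream. This upstream peak ranked 1484 in replicate 1 (signal 71.0) but 6556 in replicate 2 (signal 24.4), a signal ratio of 2.91 between the replicates and the least even of the 10 gst peaks. The start-site peak was among the 4098 strongest entries of both replicates, and the upstream one among those of replicate 1 alone.

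Neighbouring genes gst-6 and gst-7 on chromosome II each had a peak. That of gst-7 (4881552 to 4882007) had a signal of 122, with its summit 282 bp upstream, and ranked 1435 in replicate 1 (signal 72.1) and 2133 in replicate 2 (signal 51.5). That of gst-6 (4879614 to 4880069) had a signal of 87.8, with its summit 49 bp upstream, and ranked 3776 in replicate 1 (signal 40.3) and 2631 in replicate 2 (signal 45.4). The stronger of these peaks, at gst-7, had no TGATAA wholly within 50 bp of its summit, and the weaker had 2. A TGATAA centred at −331 bp from the gst-7 5′ end crossed the edge of the searched stretch, so it was not counted.

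On chromosome X, gst-36 had a peak (9862907 to 9863362) of signal 117, with its summit 175 bp upstream of gst-36 and 445 bp upstream of R07B1.5. It ranked 1668 in replicate 1 (signal 66.6) and 2283 in replicate 2 (signal 49.4). The weakest gst peak lay at gst-20 on chromosome II (13609547 to 13610002), with a signal of 73.2, rank 3674, and a summit 49 bp downstream of the 5′ end in the 5′ UTR. It ranked 3680 in replicate 1 (signal 41.2) and 4142 in replicate 2 (signal 33.5). In replicate 2 the gst-20 entry was thus just outside the 4098 strongest.

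The 10 gst peaks had signals of 73.2 to 213, while the highest signal among all 2344 promoter peaks was 1382, so none of the most intense promoter peaks lay at a gst gene. Their median signal was 119, against 108 over all promoter peaks. The median distance between summit and 5′ end was 134.5 bp for gst peaks and 191 bp for all promoter peaks. Of the 10 gst peaks, 8 (80.0%) were among the 4098 strongest entries of both replicates, against 76.5% of all promoter peaks. The exceptions were the upstream gst-13 peak and the gst-20 peak, both below that rank in replicate 2. The median rank of the gst peaks was 1460 in replicate 1 and 2208 in replicate 2, and the median signal ratio of replicate 1 to replicate 2 was 1.29, against 1.14 for all promoter peaks. Counted from each replicate's own 4098 strongest entries, 9 gst genes (20.5%) had a promoter peak in replicate 1 and 8 (18.2%) in replicate 2, against 13.8% and 13.6% of all genes. The scale of the signal may differ between lists, so ranks are given beside it.

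**Figure D1:**
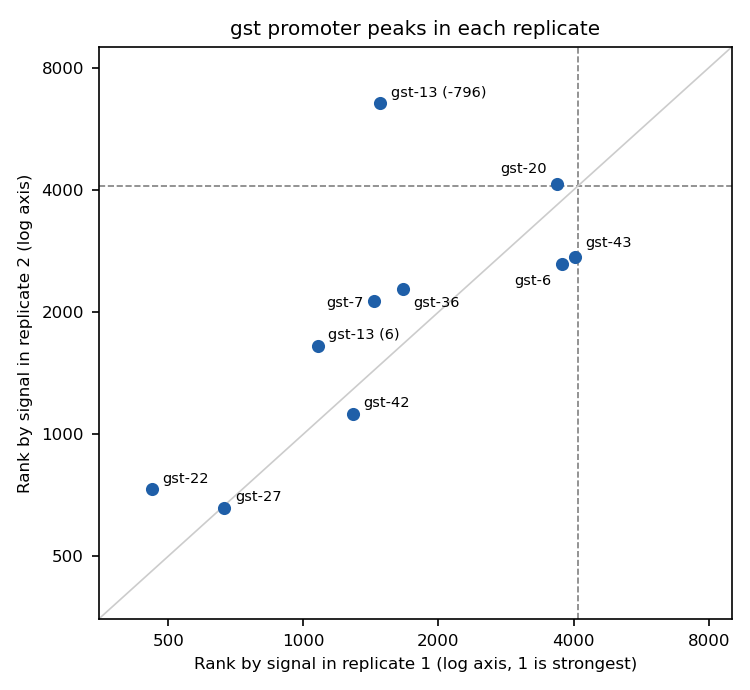
Ranks by signal of the 10 gst promoter peaks in replicate 1 (x axis) and replicate 2 (y axis), both on log axes where 1 is the strongest entry. Each point is 1 peak, the grey diagonal marks equal ranks and the dashed lines mark rank 4098. The upstream gst-13 peak lies farthest from the diagonal, at ranks 1484 and 6556, and gst-20 lies just above the line of replicate 2.

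Below the threshold, 10 of the 35 gst genes without a promoter peak (28.6%) had a weaker pooled entry in the promoter window. Together with the 9 genes above the threshold this made 19 of 44 (43.2%) with a pooled entry of any strength, against 42.0% of all genes. At this level of strength the gst share was thus near that of all genes, and the higher gst share was seen for thresholded peaks. The strongest of these entries had a signal of 59.1 and rank 4848 and lay in the shared window of the overlapping genes gst-17 and gst-18. Its signals were 35.9 in replicate 1 (rank 4491) and 25.9 in replicate 2 (rank 5976). This shared entry lay just outside the threshold, and gst-20, with 73.2, just inside it. The next were gst-16 with 33.3, gst-40 with 32.6 and gst-19 with 30.3. Signals of 27.4 at gst-24, 20.7 at gst-15, 20.1 at gst-21 and 19.1 at the divergent pair gst-2 and gst-4 completed the 10.

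**Figure D2:**
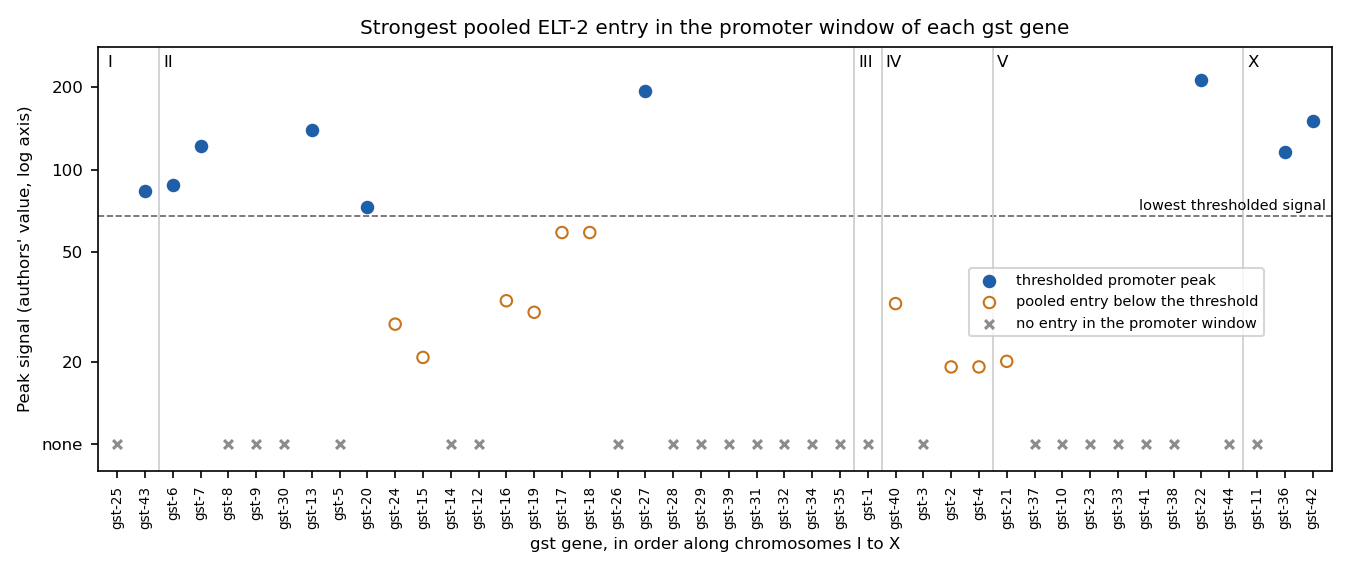
Signal of the strongest pooled entry in the promoter window of each of the 44 gst genes (y axis, the authors' value, log axis), with genes in order along chromosomes I to X (x axis). Filled circles are thresholded peaks, open circles are pooled entries below the threshold, crosses are genes with no pooled entry, and the dashed line is the lowest thresholded signal, 67.6. The 9 genes with a peak lie between 73.2 and 213 and on 4 chromosomes, and the nearest below the line are gst-17 and gst-18 at 59.1.

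The gene gst-4 had no thresholded peak in its promoter. The pooled entry of signal 19.1 in the window between gst-4 and gst-2 ranked 24286 of 30000 and had no counterpart in the promoter window in either replicate's list. This window contains the TGATAAG site printed above. The gene gst-10, whose enzyme conjugates the lipid peroxidation product 4-hydroxynonenal, had no entry in its promoter window in any of the lists. Repeated sequence made up most of that window, with 86.0% of its 36-base words occurring elsewhere in the genome, the highest share in the family, and the effect of this on peak calling was not tested. A thresholded summit of signal 103 with a TGATAA site lay 1490 bp downstream of the gst-10 start, in a coding exon of Y45G12C.1. The gene gst-1, annotated as a glutathione S-transferase P, had no pooled entry but had one in replicate 2 (signal 25.6, rank 6076). Of the other genes without a pooled entry, gst-38 had the strongest entry in 1 replicate, with a signal of 30.3 and rank 4788 in replicate 2 and 13.9 and rank 20861 in replicate 1.

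Outside the promoter window, thresholded summits lay within 2000 bp of the start of 6 gst genes without a promoter peak. Upstream of gst-8, at 1932 bp, and of gst-26, at 1477 bp, these were the summits already assigned to gst-7 and gst-27. The summit nearest to gst-28 was that of gst-27, 1376 bp downstream of its start, and the one nearest to gst-24 was that of gst-20, 1591 bp downstream. The summit of gst-10 has been described. A separate summit of signal 185 lay 1399 bp downstream of the start of gst-25, in an intron of gst-25 that is also an intron of spe-15. Of these summits, those near gst-10 and gst-25 were thus the ones that had not already been counted for another gst gene. For the 35 genes without a promoter peak the median distance to the nearest thresholded summit was 7968 bp, with a range of 1376 to 37375 bp.

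The family is concentrated on chromosome II, which held 25 of the 44 genes (56.8%), against 17.3% of all protein-coding genes. Of these 25, 5 had a promoter peak, against 13.98% of all genes of that chromosome. On X 2 of 3 gst genes had one, against 14.8% of all genes of X, and on I 1 of 2, against 16.0%. On V 1 of 9 gst genes (11.1%) had one, near the 9.93% of all genes of V. None of the 4 gst genes of chromosome IV and not the 1 of chromosome III had a peak, where 12.2% and 18.1% of all genes did. With 1 to 9 gst genes on each chromosome other than II, these counts are of little precision.

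Tandem clusters, defined by gaps of at most 10000 bp between neighbouring gst genes, held 25 of the 44 genes. In clusters 4 of 25 genes (16.0%) had a promoter peak, and outside them 5 of 19 (26.3%), against 13.7% of all protein-coding genes. Counts of 4 and 5 genes are of little precision, and the difference was not tested. The 4 clusters differed in their summits. Cluster A on chromosome II (4879891 to 4893573) held gst-6, gst-7, gst-8 and gst-9, all on the plus strand, and its first 2 genes had peaks. Another thresholded summit in that cluster, of signal 102, lay in the promoter of pgm-1. Per 10 kb, cluster A with 1 kb on each side had 1.91 thresholded summits, against 0.406 in the nuclear genome.

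Clusters B and C, also on chromosome II, hold 9 gst genes each on the minus strand and had 1 thresholded summit each. Per 10 kb this was 0.404 in cluster B and 0.424 in cluster C, near the 0.406 of the nuclear genome. Cluster B (13608154 to 13630887) ran from gst-20 to gst-18, and its peak was that of gst-20. It held 9 pooled entries in all, 8 of them below the threshold, or 3.64 per 10 kb, against 2.99 per 10 kb in the nuclear genome. Those entries had signals of 17.9 to 73.2, and none lay between 6.61 and 14.8 kb from the first base of the cluster, where gst-14 and gst-12 lie. Cluster C (15163817 to 15185389) ran from gst-26 to gst-35 and had no pooled entry other than the gst-27 peak beside the snoRNA gene. Its density was 0.424 pooled entries per 10 kb. The other 8 genes of cluster C had none at all in the pooled list, and gst-32 had one in replicate 2 (signal 21.4, rank 8059). The share of repeated 36-base words in the windows of cluster C ran from 0 at gst-26 and gst-34 to 78.6% at gst-39, and in cluster B from 0 at gst-20 to 27.7% at gst-12. Whether repeats lowered the number of entries in cluster C was not tested. Cluster D on chromosome IV (10139380 to 10143099) held gst-3, gst-2 and gst-4 and had no thresholded summit. It had 2 pooled entries, or 3.5 per 10 kb.

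**Figure D3:**
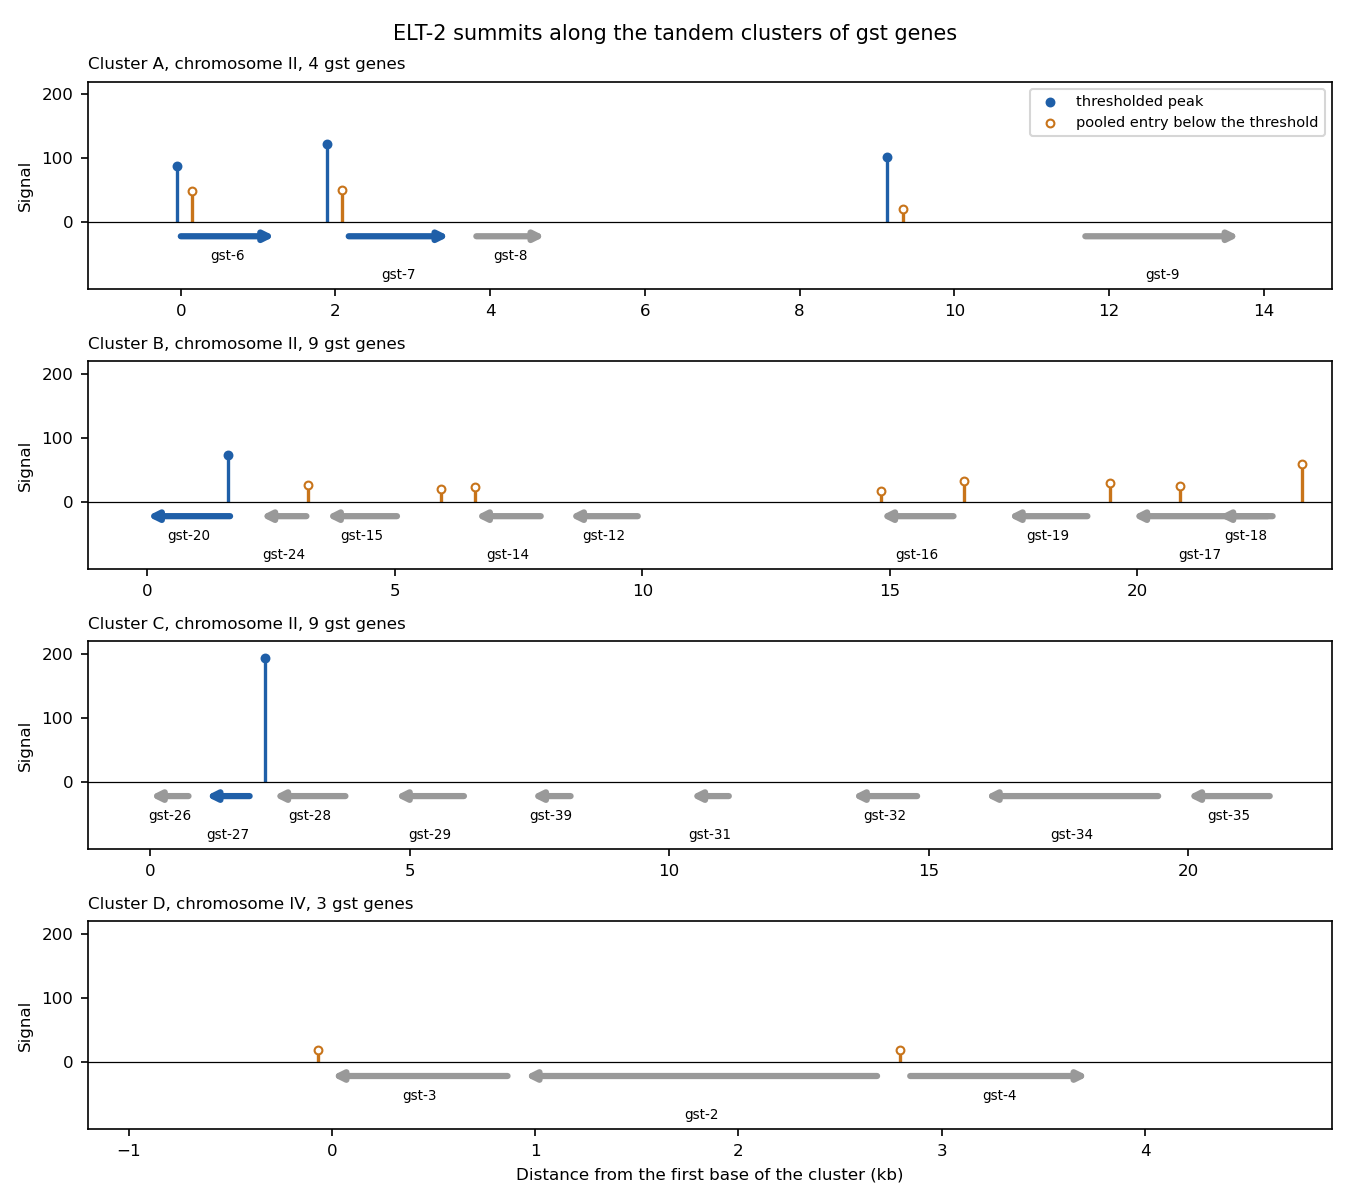
Signal of each ELT-2 summit (y axis, the authors' value) along the 4 tandem clusters of gst genes (x axis, kb from the first base of the cluster). Filled stems are thresholded peaks and open stems are pooled entries below the threshold. Arrows are gst genes in their direction of transcription, blue where the gene has a promoter peak. Cluster B has weak entries on both sides of a stretch that holds gst-14 and gst-12 and has none, and cluster C has the single gst-27 peak at 194.

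Close relatives in protein sequence did not always share the presence of a peak. The closest pair of all, gst-7 and gst-8, are neighbours in cluster A with 85.4% identical residues, and gst-7 had a peak and gst-8 none. The next, gst-27 and gst-26, are neighbours in cluster C with 85.2% identity, and gst-27 had the peak. Likewise gst-22 on chromosome V had a peak, and gst-34, its closest relative with 78.4% identity in cluster C, had none. Both genes of a pair had a peak for gst-6 and gst-7 (56.8% identity) and for gst-13 and gst-20 (55.0%), as for the isomerase-type pair described above. Counted by gene, the closest relative had a promoter peak for 5 of the 9 genes with a peak and for 5 of the 35 without. The median identity to the closest relative was 55.6% for genes with a peak and 67.8% for genes without. The means were closer, at 62.7% and 65.1%, and the ranges overlapped widely (37.4 to 85.4% and 21.9 to 85.4%). Protein length hardly differed, with a median of 209 residues in both groups. The identities come from the annotated coding sequences, and many pairs share a member, so they are not independent.

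TGATAA lay wholly within 50 bp of the summit at 5 of the 10 gst peaks, against 38.2% of all promoter peaks. The 5 were the peaks of gst-6, gst-36 and gst-42 and both peaks of gst-13. The gst-7 site that crossed the edge of the searched stretch is not counted among them. Within 25 bp the counts were 2 of 10 for gst peaks and 23.6% for all promoter peaks. TGATAAG was present at 3 of 10 gst peaks and 23.3% of all, and GATAAG, a word added after the summit sequences were seen, at 4 of 10 (40.0%) and 30.8% of all. AATAGT, the same letters as TGATAA in reverse, was at none of the 10 gst summits and at 6.48% of all. In equally wide flanking windows, with centres shifted by 500 bp, TGATAA was present at none of the 10 gst peaks and beside 9.94% of all promoter peaks.

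Over the whole promoter window the core word was common in the family as elsewhere. It was found on either strand in 31 of 44 gst windows (70.5%), against 75.5% of the windows of all protein-coding genes. AATAGT was in 35 of 44 gst windows (79.5%) and 66.0% of all windows. Among gst genes with a promoter peak 8 of 9 windows held TGATAA, the exception being gst-22, and among those without 23 of 35 (65.7%) did. Over all genes the shares were 84.3% with a peak and 74.1% without. TGATAAG was in 11 of 44 gst windows, against 26.6% of the windows of all genes. It was in 6 of 9 windows with a peak (66.7%), at gst-6, gst-7, gst-20, gst-36, gst-42 and gst-43, and in 5 of 35 without (14.3%), at gst-2, gst-4, gst-21, gst-25 and gst-26. The divergent genes gst-2 and gst-4 are counted here for the same TGATAAG site. Over all genes TGATAAG was in 44.3% of windows with a peak and 23.8% without, so the direction was the same, and whether the gst difference is larger was not tested. AATAGT went the other way in the family, in 5 of 9 windows with a peak (55.6%) and 30 of 35 without (85.7%), whereas over all genes it was in 65.9% and 66.1%.

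Promoter peaks were more frequent where the core word occurred more often, in gst genes and in all genes. Of gst windows with several sites 5 of 15 (33.3%) had a peak, of those with one site 3 of 16 (18.8%) and of those with none 1 of 13 (7.69%). Over all genes the shares were 18.3%, 10.7% and 8.78%. The order was thus the same in the family and in all genes. A word match is a feature of the sequence, and whether ELT-2 contacts it was not tested. The intergenic space upstream was a median of 618 bp for gst genes with a peak and 882 bp for those without, and the 2 ranges overlapped widely (214 to 4242 bp and 0 to 11343 bp). The share of repeated 36-base words in the window reached 6.26% at most among genes with a peak, and 86.0% among those without, where the median was 0.772%.

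**Figure D4:**
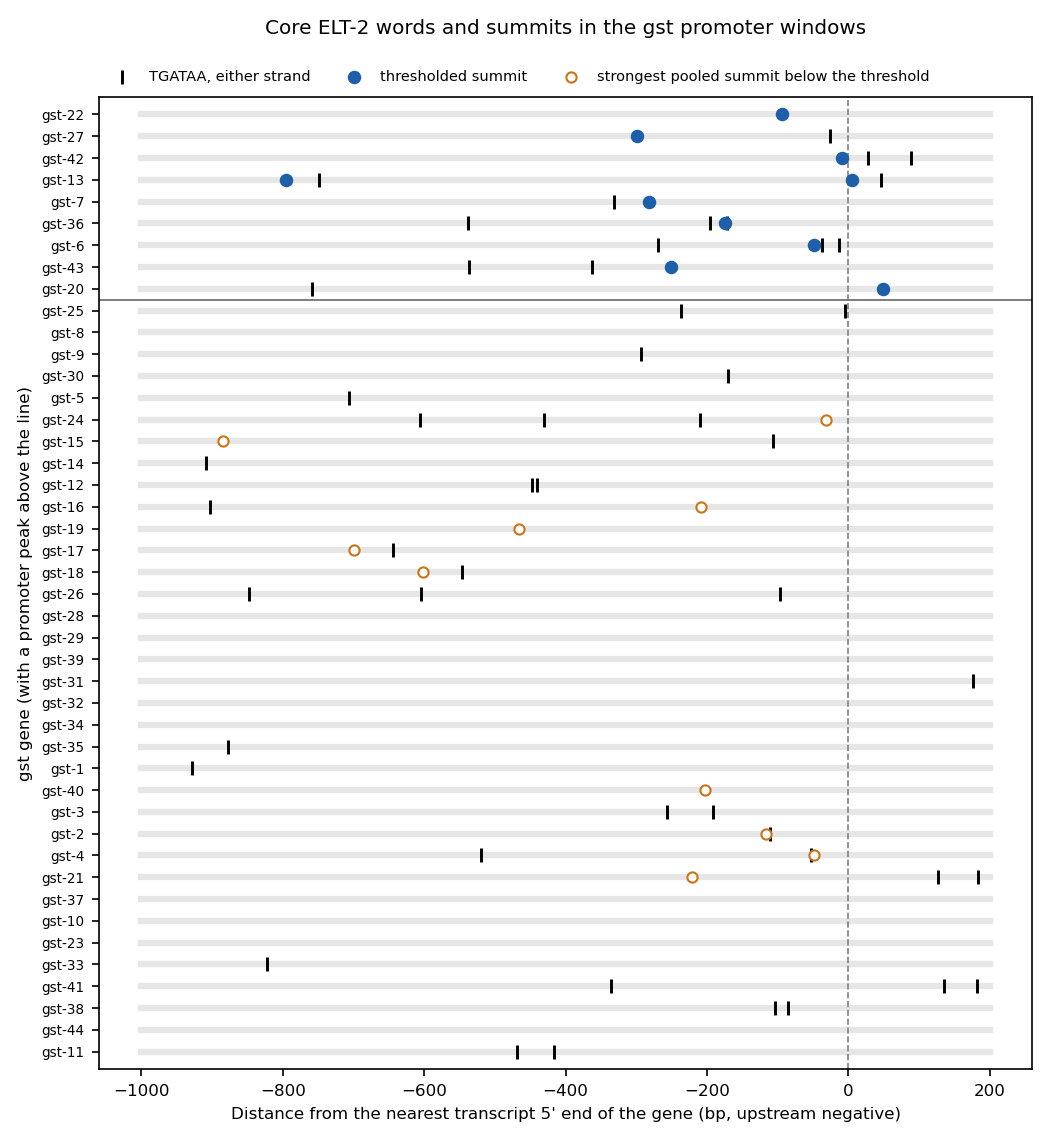
Positions of TGATAA on either strand (ticks) and of ELT-2 summits (circles) in the promoter window of each gst gene, with distance in bp from the nearest transcript 5′ end on the x axis, upstream negative. Genes above the line have a thresholded promoter peak (filled circles), and open circles are the strongest pooled summits below the threshold. At gst-6 and gst-36 a tick lies next to the summit, and gst-22 has a summit with no tick in its window.

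Other genes of glutathione metabolism were examined as a list of 29 genes, of which 7 (24.1%) had a promoter peak, against 13.7% of all genes. From the strongest entries of replicate 2 alone the count was 4 (13.8%), close to the 13.6% of all genes in that replicate. With the 2049 strongest thresholded peaks it was 2 (6.9%), close to the 7.11% of all genes at that setting. Of the genes that make and recycle glutathione, gss-1, the glutathione synthetase, had a peak of signal 84.0 and gsr-1, the glutathione reductase, one of 67.8. The gss-1 summit also counted for chch-3 and the gsr-1 summit for madf-8. With each summit given to the nearest 5′ end, gss-1 had no peak. The gene gcs-1, which encodes the enzyme of the rate-limiting step, had no entry in the pooled list. The gsr-1 peak, at rank 4087 of 4098, was at the edge of the list. None of the 8 gpx genes, which encode glutathione peroxidases, had a promoter peak, and with 8 genes this count is of little precision. Pooled entries below the threshold, of signal 18.25 to 28.53, lay at gpx-1, gpx-2, gpx-4 and gpx-6. Of the 5 omega and kappa class transferase genes, gstk-1 had a promoter peak of signal 79.1, and its summit also counted for ZK1307.1. Of the 8 mrp genes, which encode exporters of the kind that carry glutathione conjugates, mrp-5 had the strongest peak of the list, with a signal of 275.04 and rank 293, 258 bp upstream of the gene, and mrp-3 had one of 98.8. The mrp-5 peak was thus stronger than any gst peak.

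Of 5 regulators of gst genes, skn-1 and wdr-23 had peaks. The skn-1 peak had a signal of 147 and lay 57 bp upstream of a skn-1 transcript start, in an intron of skn-1, with TGATAA within 50 bp. The same summit lay in the window of clec-178, so it counts for both. The wdr-23 peak, at the gene of a repressor of SKN-1, had a signal of 76.7 and lay 7 bp upstream. The other regulators, xrep-4, brap-2 and the GATA factor gene elt-3, had no thresholded promoter peak, and elt-3 had a pooled entry of 57.96. Of the 7 peaks of the list, those of gstk-1, mrp-5 and skn-1 were among the strongest of both replicates and had TGATAA within 50 bp of the summit, and the other 4 had neither property.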

How the data were processed

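The submitters deposited peak lists in narrowPeak form. From the ce11 lists the signal, which is the authors' own deposited value per peak, and the summit offset, an other deposited value in bp, were used. The thresholded list is described in the deposited file listing as the optimal output of the irreproducible discovery rate procedure, and the replicate lists as its input. Not given in the sources used here are the aligner, the peak caller, the procedure's threshold, the signal scale and the read depth. The 4 ce10 lists were not used. Gene models were those of Ensembl release 115 on WBcel235, the assembly of ce11, and product names those of RefSeq.

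Summits were assigned to every 5′ end whose window held them. A replicate entry was matched to a peak by an overlap of at least 1 bp, the strongest being taken. Words were searched on both strands up to 50 bp to each side of a summit, and a match had to lie wholly within that stretch. Repeats were counted as 36-base words that occur more than once in the genome, and protein identity was taken from global alignments of translated coding sequences. Python 3.11.15, pandas 2.3.3, NumPy 2.4.6, Biopython 1.88 and matplotlib 3.10.9 were used, and the counting was tested on simulated data.

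With 1 group and no control, results are counts beside the same counts over all genes or peaks, with no test and no p-value. The members and gene lists were chosen with earlier results of these data known. Genes named are all gst genes with a peak, the 5 without one that have the strongest pooled entry, those with a summit within 2000 bp upstream, gst-1, gst-4, gst-7, gst-10 and the pathway genes with a peak. Other genes named were chosen after their values were seen. Alternatives varied the window, the assignment, the list strength, the site, the cluster gap and the replicates.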

Additional observations from a re-analysis of the deposited data

How the results depend on the processing

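The count of 9 gst genes with a promoter peak stayed at 9 in the narrower window (500 bp before to 100 bp after the 5′ end). It was 11 in the wider one of 2000 bp and 500 bp (gst-8 and gst-26 added), 8 with each summit given to the nearest 5′ end (without gst-43), 6 with the 2049 strongest peaks (without gst-6, gst-20 and gst-43) and 8 to 9 when the 4098 strongest entries of 1 replicate replaced the thresholded list. Over all genes the share also depended on the setting. It was 13.7% in the main window, 10.68% in the narrower one and 18.02% in the wider one. With each summit given to the nearest 5′ end it was 10.65%. The share of all genes moved to 7.11% with the 2049 strongest peaks, and ran from 13.6 to 13.8% in single replicates. The gap between the gst share and that of all genes thus changed with the setting, and was not tested. The count of gst peaks with TGATAA moved to 3 of 6 with those peaks, to 2 of 10 within 25 bp, to 3 of 10 for TGATAAG, and was 4 of 8 and 4 of 11 in single replicates. The pathway count moved to 2 of 29 (6.9%) with the 2049 peaks, close to the 7.11% of all genes. It was 4 to 6 in single replicates, the lower value without replicate 1. The cause of these shifts was not tested. Of 33 alternatives 27 kept their count within 1.5 times. No paired analysis was possible because there is 1 group. The counts of 9 genes and 10 peaks limit what can be said, and depth, controls and expression are unknown.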
